A study of Mus musculus with 4 samples.

Results

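Chains of neighbouring H3K79me2 peaks are stretches of the genome in which 3 or more called peaks follow one another with gaps of 5 kb or less. They were chosen by the measured positions of the peaks in each of 2 deposited lists, and by no other value. The PBS list gave 91 chains, which hold 288 of its 11926 peaks, and the lysine list gave 52 chains, which hold 161 of its 9805 peaks. The lists were made by chromatin immunoprecipitation and sequencing (ChIP-seq) of bone marrow-derived dendritic cells of C57BL/6J mice, cultured cells that take up antigen and present it to T cells. Cells of the first group received PBS, a salt solution. Cells of the second group received lysine, an essential amino acid, at 18 mM for 6 h. No time is stated for PBS, and no mutant allele or further agent for either group. Each condition has 1 H3K79me2 library and 1 input library, and the inputs were not analysed here. With 1 library per condition no difference could be set against a spread between replicates, so all values below are described with no test. The lists give no read counts, and the depth of the libraries is unknown. Intervals in parentheses are exact (Clopper-Pearson) 95% intervals, which cover counting error only.

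The enzyme Dot1l dimethylates lysine 79 on the globular part of histone H3. It travels with elongation complexes that contain proteins of the AF9, ENL and AF4 families, and the mark is known to lie over the first part of transcribed genes, downstream of their starts. Several peaks in a row may lie along the same gene, over a group of genes that stand side by side, or between genes. The rule does not separate these cases, so each chain was assigned to the RefSeq genes that its peaks overlap.

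Promoters of 9 genes are shown because their starts lie under a peak of a chain and the results below turn on them. Eif4a1, Mpdu1 and Cd68 share 1 chain in both lists. H3c11 and H2bc22 are histone genes in a PBS chain, Dot1l and Per1 start under peaks of PBS chains, and Il3ra and Klf9 start under peaks of lysine chains. Each sequence runs from 250 bases before to 50 bases after a RefSeq start in GRCm38.p6, is written 5′ to 3′ on the strand of the gene, and has in capitals every match, on either strand, to the GC box GGGCGG, the box named CCAAT, the TATA box TATAAA, the E box CACGTG, the cAMP response element TGACGTCA and the AP-1 motif TGANTCA. No matches of different motifs overlapped in the sequences shown.
Eif4a1 (chr11:69672374-69672673, minus strand): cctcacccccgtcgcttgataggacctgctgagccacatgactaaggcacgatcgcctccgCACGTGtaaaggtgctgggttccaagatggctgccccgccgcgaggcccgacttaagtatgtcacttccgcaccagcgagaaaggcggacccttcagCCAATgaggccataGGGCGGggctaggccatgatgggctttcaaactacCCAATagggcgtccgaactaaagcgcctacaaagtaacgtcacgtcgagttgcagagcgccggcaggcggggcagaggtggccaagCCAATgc
Mpdu1 (chr11:69662600-69662899, minus strand): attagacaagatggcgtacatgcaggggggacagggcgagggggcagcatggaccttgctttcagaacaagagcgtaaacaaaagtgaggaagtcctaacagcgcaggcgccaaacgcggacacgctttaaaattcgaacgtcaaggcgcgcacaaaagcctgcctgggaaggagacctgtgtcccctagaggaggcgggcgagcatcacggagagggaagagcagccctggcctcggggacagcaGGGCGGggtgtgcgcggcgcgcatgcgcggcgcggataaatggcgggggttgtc
Cd68 (chr11:69666121-69666420, minus strand): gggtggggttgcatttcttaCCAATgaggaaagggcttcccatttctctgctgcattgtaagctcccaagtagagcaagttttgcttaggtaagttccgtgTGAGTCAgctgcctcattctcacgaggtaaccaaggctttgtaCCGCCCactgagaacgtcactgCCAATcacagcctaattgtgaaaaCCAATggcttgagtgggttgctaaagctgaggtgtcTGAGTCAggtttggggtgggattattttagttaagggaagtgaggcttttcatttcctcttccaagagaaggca
H3c11 (chr13:21783348-21783647, minus strand): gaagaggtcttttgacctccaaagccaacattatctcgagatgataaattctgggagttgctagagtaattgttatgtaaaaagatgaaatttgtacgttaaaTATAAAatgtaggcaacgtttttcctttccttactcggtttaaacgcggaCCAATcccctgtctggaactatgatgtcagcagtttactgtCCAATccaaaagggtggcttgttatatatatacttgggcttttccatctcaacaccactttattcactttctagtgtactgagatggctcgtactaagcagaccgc
H2bc22 (chr13:21787238-21787537, plus strand): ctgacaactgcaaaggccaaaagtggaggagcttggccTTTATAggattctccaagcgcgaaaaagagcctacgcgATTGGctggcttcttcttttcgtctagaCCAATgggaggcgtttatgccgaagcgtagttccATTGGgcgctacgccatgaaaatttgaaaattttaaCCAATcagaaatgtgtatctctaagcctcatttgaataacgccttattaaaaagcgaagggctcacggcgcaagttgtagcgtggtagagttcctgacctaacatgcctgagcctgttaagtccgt
Dot1l (chr10:80754953-80755252, plus strand): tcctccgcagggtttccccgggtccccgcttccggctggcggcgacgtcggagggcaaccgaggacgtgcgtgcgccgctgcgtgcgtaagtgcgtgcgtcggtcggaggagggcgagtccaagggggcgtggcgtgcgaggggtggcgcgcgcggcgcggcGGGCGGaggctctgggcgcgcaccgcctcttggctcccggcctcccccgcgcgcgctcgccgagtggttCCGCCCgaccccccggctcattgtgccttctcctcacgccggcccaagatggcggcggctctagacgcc
Per1 (chr11:69098699-69098998, plus strand): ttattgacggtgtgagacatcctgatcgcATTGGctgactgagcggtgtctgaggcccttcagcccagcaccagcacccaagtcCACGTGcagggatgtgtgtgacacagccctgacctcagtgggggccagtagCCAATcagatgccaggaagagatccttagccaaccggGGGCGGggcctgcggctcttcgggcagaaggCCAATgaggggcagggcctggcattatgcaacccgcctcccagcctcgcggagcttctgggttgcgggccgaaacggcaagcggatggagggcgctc
Il3ra (chr14:14346245-14346544, plus strand): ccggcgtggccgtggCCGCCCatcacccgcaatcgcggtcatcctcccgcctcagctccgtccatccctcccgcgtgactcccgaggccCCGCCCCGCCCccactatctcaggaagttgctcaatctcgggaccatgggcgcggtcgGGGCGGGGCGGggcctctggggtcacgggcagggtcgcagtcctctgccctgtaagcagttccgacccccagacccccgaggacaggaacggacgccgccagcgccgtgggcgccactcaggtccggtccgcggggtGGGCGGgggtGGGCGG
Klf9 (chr19:23140976-23141275, plus strand): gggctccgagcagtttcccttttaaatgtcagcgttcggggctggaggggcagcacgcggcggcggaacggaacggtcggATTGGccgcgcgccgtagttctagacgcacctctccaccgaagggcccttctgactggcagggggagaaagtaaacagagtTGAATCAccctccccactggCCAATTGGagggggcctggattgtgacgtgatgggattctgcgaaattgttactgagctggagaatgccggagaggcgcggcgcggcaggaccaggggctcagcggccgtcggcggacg

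GGGCGG was in the windows of Eif4a1, Mpdu1, Cd68, Dot1l, Per1 and Il3ra, with 7 matches in that of Il3ra. CCAAT was in those of Eif4a1, Cd68, H3c11, H2bc22, Per1 and Klf9, TATAAA in those of the histone genes H3c11 and H2bc22, CACGTG in those of Eif4a1 and Per1, and TGANTCA in those of Cd68 and Klf9. Among 21263 starts of 17492 protein-coding genes, 46.2% of windows held GGGCGG, 38.2% CCAAT, 12.6% TATAAA, 7.84% CACGTG, 2.23% TGACGTCA and 6.99% TGANTCA. A match describes letters in a window and no binding.

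The markers of the labelled cell type were checked first. Of 28 dendritic markers, 16 carried a PBS peak and 14 a lysine peak, beside 34% and 31.4% of all 21900 protein-coding genes. Peaks covered 442 bp in PBS and 421 bp in lysine of Flt3, a growth factor receptor of dendritic precursors, and 310 and 0 bp of Zbtb46, a transcription factor of classical dendritic cells. No peak lay on 10 of the 28 in either list, among them Irf4, Batf3, Ccr7 and H2-Aa. Of 22 macrophage and monocyte markers, 9 and 5 carried a peak, with 1171 and 1160 bp covered on Csf1r and none on Adgre1 and Lyz2. Of 19 neutrophil markers the numbers were 3 and 1, of 14 mast cell and basophil markers 2 and 1, of 20 T and NK cell markers 2 and 2, of 14 B cell markers 0 and 1, and of 17 erythroid and megakaryocytic markers 1 and 2. Of 16 stromal and endothelial markers 2 and 2 carried a peak, and of 20 neuronal and hepatic genes 1 and 2. Chain peaks lay on Itgax among the dendritic markers, in PBS, and on Cd68 among the macrophage markers, in both lists, and on no gene of the 7 other marker lists. Itgax encodes the integrin CD11c and Cd68 a lysosomal membrane protein of macrophages and dendritic cells.

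Chains were fewer in the lysine list, which also had fewer peaks. They held 2.41% (2.15 to 2.71) of the PBS peaks and 1.64% (1.40 to 1.91) of the lysine peaks. The lysine list had 0.822 times as many peaks as the PBS list, 0.854 times as many peaks standing alone, 0.673 times as many runs of 2, and 0.571 times as many chains. A chain needs 3 or more peaks close together, so its number need not fall in proportion to that of peaks. No loss of chains beyond that of peaks is read from these ratios. Runs of 4 or more peaks numbered 13 in PBS and 3 in lysine. Chain peaks covered 180.3 kb in PBS and 99.6 kb in lysine.

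The difference in chain number was small once both lists were reduced to equal numbers of peaks. The 9805 PBS peaks of highest −log10 q, the significance value that the authors' peak caller gave each peak, formed 54 chains, against 52 in lysine. The same 9805 peaks formed 532 runs of 2, against 542 in lysine. With the same minimum −log10 q of 2 in both lists, chains numbered 68 in PBS and 33 in lysine. The depth and enrichment of the libraries, which set how many peaks are called, cannot be told apart from the condition.

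**Figure D1:**
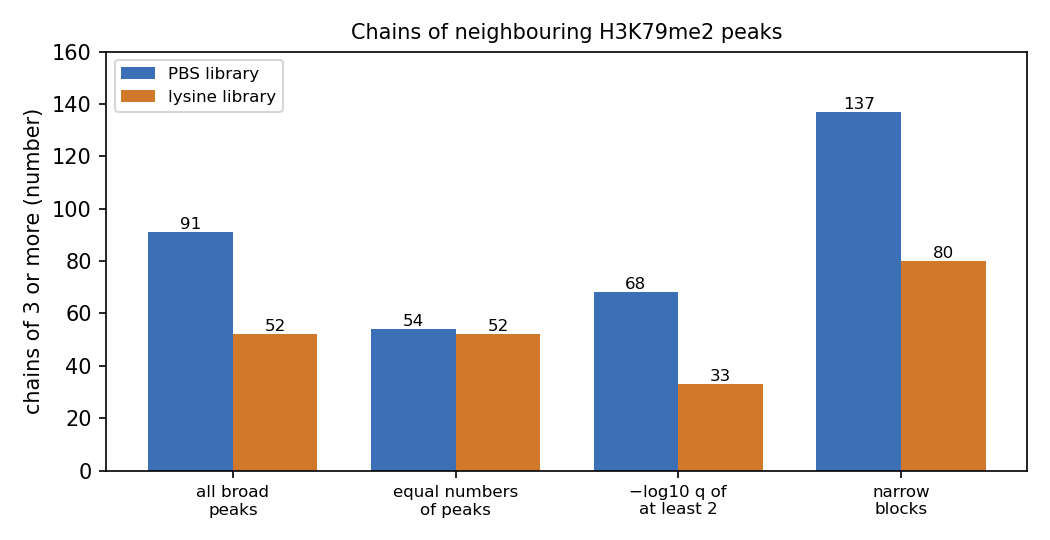
Number of chains of 3 or more peaks in the PBS and the lysine library (vertical axis, from 0) under 4 treatments of the lists (horizontal axis). With all broad peaks the bars stand at 91 and 52, with equal numbers of peaks at 54 and 52, with −log10 q of 2 or more at 68 and 33, and with narrow blocks at 137 and 80.

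A chain was of similar size in both lists. The span from the first to the last base had a median of 7700 bp in PBS (quartiles 6239.5 and 8964, range 3994 to 15753) and 7576 bp in lysine (quartiles 5975.5 and 8778.5, range 4295 to 19670). Peaks covered a median of 25.3% of the span in PBS and 22.6% in lysine, with ranges of 12.6% to 55.1% and 10.1% to 54.4%. The median gap within chains was 2489 bp in PBS and 2575 bp in lysine. The median width of their peaks was close to that outside chains. The median peak width was 460 bp in PBS chains and 456 bp outside them, and 466 and 450 bp in lysine. Wide peaks, of 1 kb or more, were more frequent in PBS chains, at 14.9% (11 to 19.6) against 9.77% (9.24 to 10.3) outside them. In lysine they made up 10.6% (6.27 to 16.4) and 8.48% (7.93 to 9.06).

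The limit of 5 kb passed through closely spaced cases. The PBS chains that it barely admitted had largest gaps of 4988 bp at Sertad1, 4950 bp at Tapbp and 4933 bp at Irak2. The nearest PBS runs left out had gaps of 5010 bp at Pias4, 5030 bp at Abhd5 and 5066 bp at Flrt2. In lysine the gaps just inside were 4990 bp at Irak2 and 4960 bp at Usp4, and those just outside were 5065 bp at Slc11a1 and 5107 bp at Ctdsp1.

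Most chains of either list were not chains in the other, although most had peaks there. Of the 91 PBS chains, 22 (24.2%, 15.8 to 34.3) shared peak bases with a lysine chain. A further 62 had a lysine peak on at least 1 of their peaks but no chain, and 7 had none. Of the 52 lysine chains, 22 (42.3%, 28.7 to 56.8) shared peak bases with a PBS chain, 29 had PBS peaks without a chain, and 1 had none. The background for these shares is 1.02% of all PBS peaks under a lysine chain peak and 1.77% of all lysine peaks under a PBS chain peak. That background counts single peaks, of which a chain holds 3 or more.

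Peaks in chains were met in the other list about as often as peaks outside chains. A lysine peak overlapped 179 of the 288 PBS chain peaks (62.2%, 56.3 to 67.8), and the share over all PBS peaks was 61.9%. A PBS peak overlapped 125 of the 161 lysine chain peaks (77.6%, 70.4 to 83.8), and the share over all lysine peaks was 75.3%. Both shares were near the background. The shares rose with the strength of the peak inside and outside chains. Of PBS chain peaks with −log10 q under 2.5, 40.0% (27.6 to 53.5) had a lysine partner, against 31.3% outside chains. With −log10 q of 10 or more, 22 of 22 had one, against 98.4% outside.

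**Figure D2:**
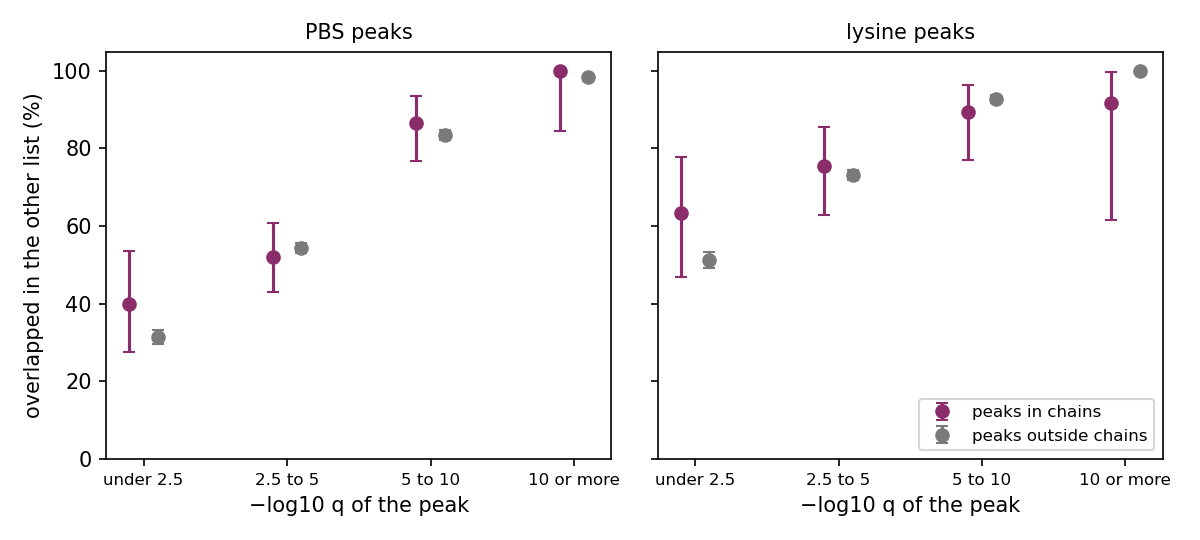
Share of peaks overlapped by a peak of the other list (vertical axis, percent) in 4 classes of −log10 q (horizontal axis), for peaks in chains and outside chains, PBS peaks on the left and lysine peaks on the right; bars are exact 95% intervals. Among PBS peaks in chains the share goes from 40.0% in the weakest class to 100% in the strongest, beside 31.3% and 98.4% outside chains.

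Joining PBS and lysine chains whose spans overlap gave 121 loci, of which 22 had a chain in both lists, 69 in PBS alone and 30 in lysine alone. At the 22 shared loci peaks covered 49.2 kb in PBS and 47.4 kb in lysine, and the ratio of lysine to PBS at a locus was 0.550 to 2.57 with a median of 0.867. Lysine covered less at 16 of the 22 and more at 6. Without the locus at the start of chromosome 9, described below, the sums were 45.7 and 38.5 kb. At the 69 loci of PBS alone, chosen for their PBS chain, peaks covered 131.1 and 68.7 kb, and 59 had less covered length in lysine. At the 30 loci of lysine alone, chosen for their lysine chain, peaks covered 41.3 and 52.2 kb, and 25 had more in lysine. The choice of loci fixes these last directions in part, and nothing is read from them.

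**Figure D3:**
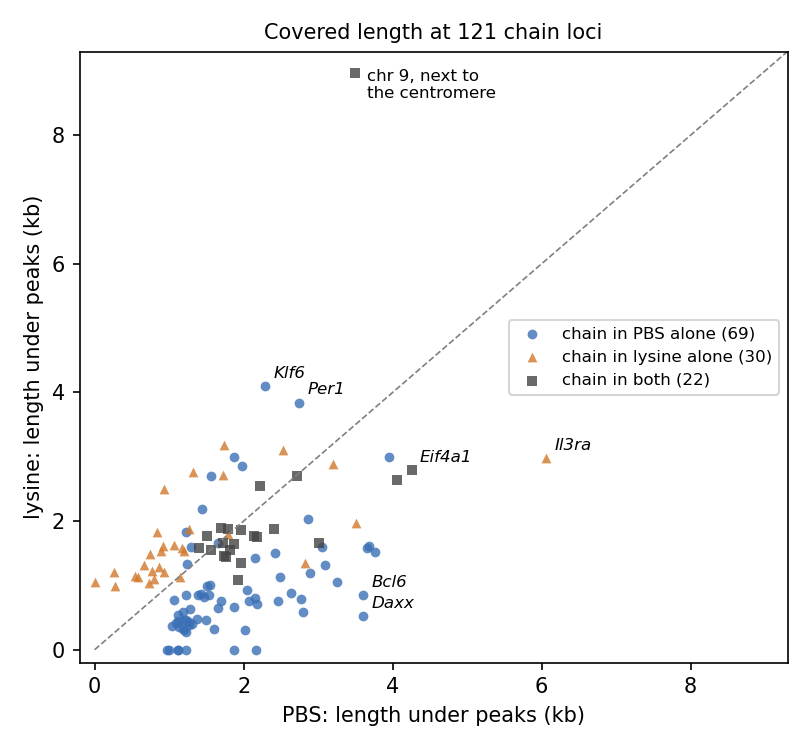
Length under peaks in PBS (horizontal axis, kb) and in lysine (vertical axis, kb) at the 121 loci, 1 point per locus, with symbols for the list that holds the chain and a dashed line of equal length. Of the 22 shared loci 17 lie within 1.5 times of equal length, and the one farthest above the line is at the start of chromosome 9, where PBS peaks cover 3491 bp and lysine peaks 8967 bp.

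Among the shared loci were groups of genes that stand side by side. The locus with the most covered length there that overlaps a protein-coding gene was that of Eif4a1, Mpdu1 and Cd68 (chr11:69662374-69672806). Eif4a1 encodes an RNA helicase of translation initiation, and Mpdu1 a protein that enables the use of mannose lipid donors in glycosylation. Peaks of 1890, 577 and 1787 bp in PBS and of 473, 690 and 1630 bp in lysine covered 4254 and 2793 bp. They lay over the starts of Mpdu1, Cd68 and Eif4a1, the genes whose promoters are shown above. The peaks at Eif4a1 and Cd68 had −log10 q above 10 in PBS, and of 17.2 and 9.23 in lysine, and the peak at Mpdu1 had 4.18 in PBS and 4.04 in lysine.

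Other shared loci over 3 or more protein-coding genes were chosen for mention after their values were seen. Gabarap, Phf23 and Dvl2, an autophagy adaptor, a PHD finger protein and a Wnt signalling protein, had peaks covering 1970 bp in PBS and 1862 bp in lysine. Ring1, H2-Ke6, Slc39a7 and Rxrb, which include a Polycomb E3 ligase, a zinc transporter and a retinoid receptor, had 1743 and 1464 bp. The direction turned at Gabarap with −log10 q of 5 or more (165 bp more in lysine) and at H2-Ke6 with equal numbers of peaks (379 bp more). A PBS chain of 4 peaks and 1877 bp lay over Dpep2, Ddx28 and Dus2, and the lysine chain there, of 3 peaks and 1647 bp, lay on Dpep2 alone. Of 7 PBS chains over 3 or more genes, 4 were also chains in lysine, and of 4 such lysine chains 3 were chains in PBS. The remaining lysine chain lay over Nkiras2, Dnajc7 and Zfp385c, where PBS had peaks but no chain.

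Besides Eif4a1 and the start of chromosome 9, the shared loci with most covered length were Sdccag8, Nfil3, Irak2, Mcl1, Gm36486 and Gm46842. Peaks covered 4060 bp in PBS and 2640 bp in lysine at Sdccag8. They covered 2414 and 1881 bp at the non-coding Gm36486, and 2176 and 1750 bp at the non-coding Gm46842. The direction at Sdccag8 and Gm36486 depended on the treatment, with values given further below. No common function is read from these loci. Nfil3 encodes a basic leucine zipper transcription factor needed for several innate immune lineages. Its locus (chr13:52973694-52986066) had 4 PBS peaks of 434, 1303, 420 and 561 bp and 5 lysine peaks of 289, 726, 789, 446 and 447 bp. The lysine chain held an additional peak at one end and otherwise met each PBS peak, and covered length was 2718 bp in PBS and 2697 bp in lysine. With narrow blocks in place of broad peaks lysine covered more at Nfil3, by 155 bp.

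Mcl1 encodes an anti-apoptotic protein of the Bcl2 family. It had PBS peaks of 1069, 290, 516 and 1141 bp and lysine peaks of 882, 365 and 412 bp (chr3:95650450-95659528). The weakest PBS peak, with −log10 q of 1.81, had no lysine peak on it. With peaks of −log10 q of 5 or more alone, lysine covered 225 bp more at Mcl1.

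Irak2, a kinase-like adaptor of Toll-like receptor signalling, had peaks of 1340, 466 and 415 bp in PBS and of 1553, 473 and 513 bp in lysine. With peaks of −log10 q of 5 or more the direction turned, to -408 bp. Trib1, a pseudokinase that regulates C/EBP proteins in myeloid cells, had peaks of 821, 407 and 588 bp in PBS and of 741, 449 and 366 bp in lysine. Gadd45a, a stress response gene, had 409, 320 and 1041 bp and then 357, 359 and 733 bp. At these loci the peaks of both lists stood in the same places and differed in width. Trib1 and Gadd45a were chosen after their values were seen.

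The largest rise of a shared locus lay in no gene, at the start of chromosome 9 (chr9:3018522-3038191), the end where the mouse centromere lies. PBS peaks of 303, 1215, 505, 1193 and 275 bp and lysine peaks of 274, 3568, 1219, 731 and 3175 bp covered 3491 and 8967 bp. Such ends carry repeats, in which reads can map to several copies, and the nearest protein-coding gene, Alkbh8, is 297040 bp away. Without it chains numbered 90 and 51, an alternative added after the data were seen.

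**Figure D4:**
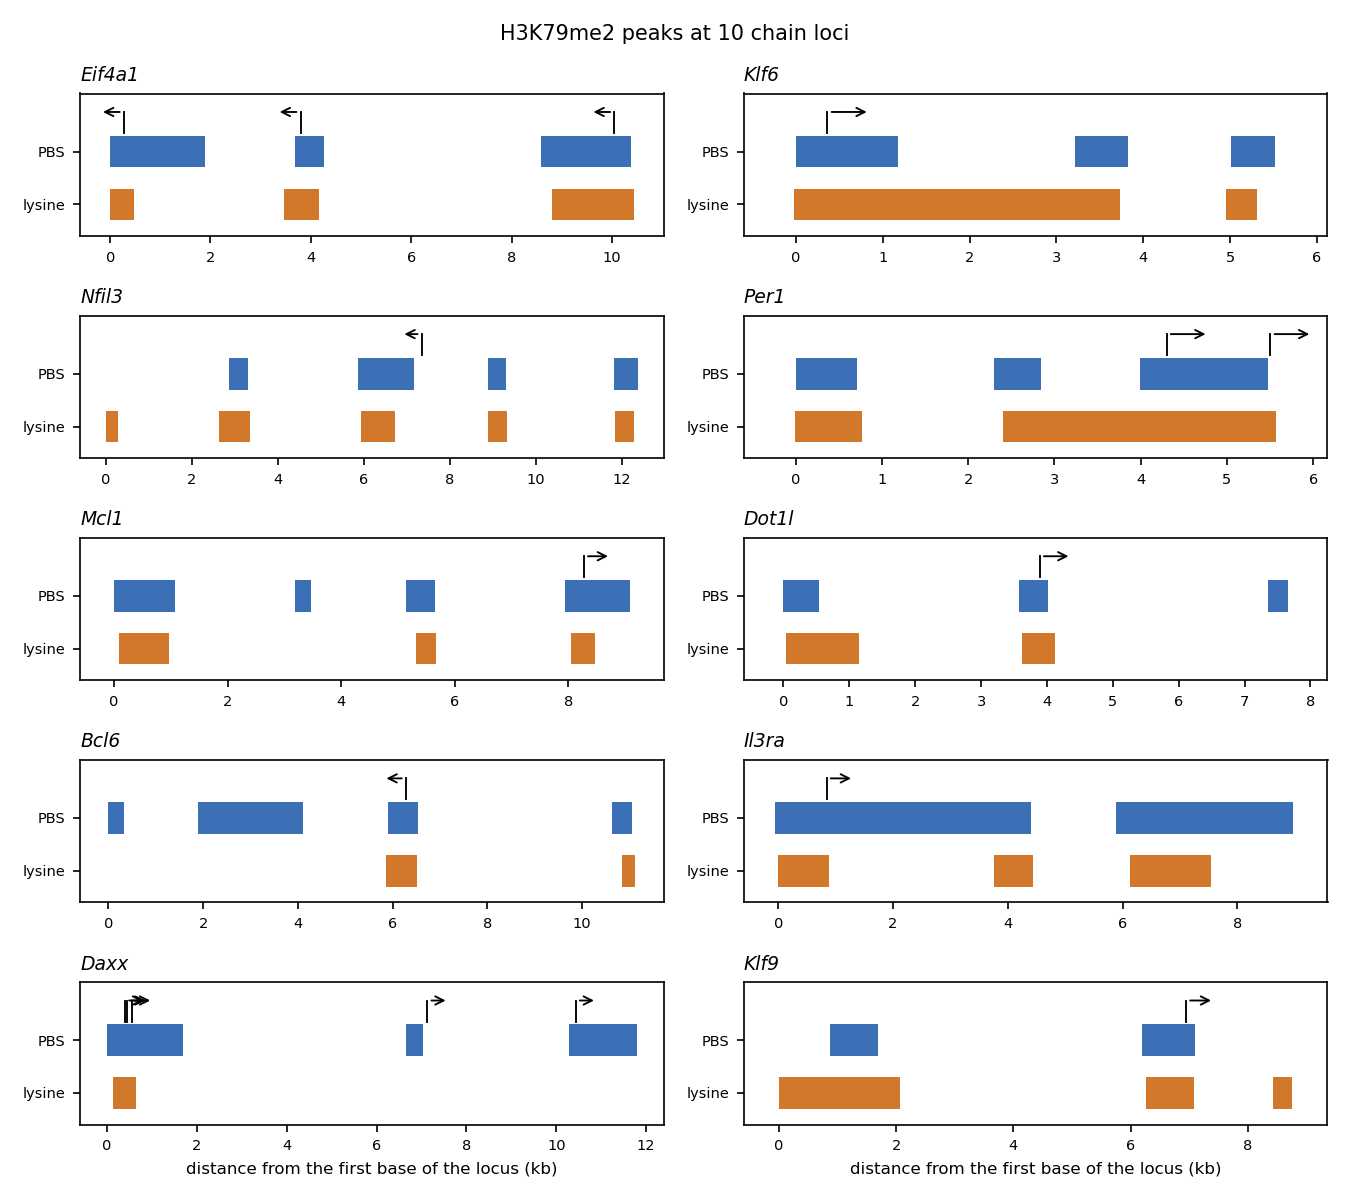
Peaks of PBS (upper row) and lysine (lower row) as boxes to scale at 10 loci, against distance from the first base of the locus (horizontal axis, kb); arrows mark RefSeq gene starts and their direction. At Nfil3 4 PBS peaks face 5 lysine peaks, at Daxx 3 face 1, and at Il3ra 2 wide PBS peaks face 3 narrower lysine peaks.

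Chains of PBS alone included genes that control transcription in immune cells. Bcl6 encodes a zinc finger repressor of immune cell differentiation. Its PBS peaks measured 319, 2226, 640 and 417 bp, and lysine had 641 and 278 bp (chr16:23982572-23993620). The lysine peak of 641 bp lay over the PBS peak at the start of the gene and had −log10 q of 11.4, and the widest PBS peak, with −log10 q of 2.42, had no lysine peak. With peaks of −log10 q of 5 or more alone, the lysine list covered 1 bp more at Bcl6.

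Runx1 encodes a transcription factor of blood cell development. Inside the gene, PBS peaks of 344, 309 and 341 bp (chr16:92609345-92615602), with −log10 q of 4.09 to 4.48, had no lysine peak on them. Mbnl1, which encodes a splicing regulator, held 2 PBS chains, with peaks of 1260, 545 and 364 bp and of 343, 280 and 347 bp, and no lysine peak on either. The other PBS chains without a lysine peak lay at Abca1, a cholesterol exporter, Hif1a, the oxygen-regulated transcription factor, Taf3, a subunit of the general factor TFIID, and the long non-coding RNA Gm13986. Of the 21 peaks of these 7 chains, 9 had −log10 q above 4.03, the median of PBS peaks outside chains, and the highest was 5.25, at Abca1.

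Dot1l and Aff1, which encodes a partner of Dot1l complexes, lay in chains of PBS alone. Dot1l had PBS peaks of 543, 436 and 310 bp and lysine peaks of 1104 and 500 bp (chr10:80751312-80758970). At this locus lysine thus had fewer peaks but more covered length, 1604 bp against 1289 bp. That direction turned with narrow blocks, to a lysine minus PBS length of -267 bp. The locus begins upstream of the gene. On Dot1l itself each list had 2 peaks, which covered 537 bp in PBS and 634 bp in lysine. Aff1, an AF4 family scaffold of elongation complexes, had PBS peaks of 434, 361 and 332 bp inside the gene and a lysine peak of 352 bp. Chain peaks lay on 2 of the 25 genes of the H3K79 methylation and elongation list in PBS and on 0 in lysine, beside 0.425% and 0.242% of all protein-coding genes. Any peak lay on 21 and 19 of the 25, beside 34% and 31.4%.

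PBS chains over neighbouring genes included that of the MHC class I gene Tapbp and those of 2 groups of histone genes. Daxx, a histone H3.3 chaperone, Zbtb22, a zinc finger protein, and Tapbp, the tapasin of MHC class I loading, had PBS peaks of 1700, 390 and 1515 bp and a lysine peak of 524 bp (chr17:33909045-33920838). The lysine peak lay at the start of Daxx, and Tapbp had no lysine peak in the locus. H1f5, H3c11, H2ac22 and H2bc22 had PBS peaks of 1613, 486 and 535 bp and lysine peaks of 426 and 462 bp. H4c8, H2ac10 and H3c8 had 505, 287 and 414 bp and then 476 bp. The histone genes were chosen after their values were seen. They resemble other histone genes of the same type, so reads may be placed on the wrong gene and their values are uncertain.

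Genes induced early after stimulation showed 2 different pictures. Fosl2, an AP-1 subunit, had PBS peaks of 362, 979 and 2341 bp and lysine peaks of 1319 and 287 bp. Klf6, a Krüppel-like factor, had PBS peaks of 1175, 607 and 507 bp and lysine peaks of 3751 and 368 bp. Per1, a repressor of the circadian clock, had PBS peaks of 713, 541 and 1490 bp and lysine peaks of 775 and 3163 bp. At Klf6 and at Per1 a wide lysine peak lay over 2 PBS peaks, so the chain was lost while covered length was higher in lysine. The direction turned at Klf6 with narrow blocks, where the lysine minus PBS length was -258 bp, and at Per1 and Fosl2 with peaks of −log10 q of 5 or more, to -1977 bp and 340 bp.

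With broad peaks, the number of peaks and the covered length parted at 16 of the 121 loci. At 10 loci lysine had fewer peaks but more covered length, namely Dot1l, Per1, Klf6, Rhof, Med29, Pip5k1c, Glipr1, Myo1c, Rcbtb2 and the non-coding Gm40645. With narrow blocks 7 of these 10 turned, to less covered length in lysine, and 8 turned under at least 1 treatment. At 6 it had more peaks but less covered length, namely Il3ra, Nfil3, Pim1, Itpr1, Sys1 and a locus in no gene on chromosome 16, 35689 bp from Runx1, and 2 of these 6 turned with narrow blocks. Over all 121 loci lysine had fewer peaks at 70, the same number at 21 and more at 30. Of these loci 69 were chosen for a chain in PBS alone and 30 for one in lysine alone. The choice fixes the tally in part, and nothing is read from it.

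Chains of lysine alone included a cytokine receptor, a kinase and a bromodomain gene. Il3ra encodes the alpha chain of the interleukin-3 receptor. PBS had peaks of 4457 and 3085 bp there, and lysine had peaks of 886, 683 and 1408 bp (chr14:14345653-14353196). Within that span peaks covered 6059 bp in PBS and 2977 bp in lysine, so the lysine chain marked a shorter covered length split into more peaks. Pim1, a serine/threonine kinase of cytokine signalling, had 2 PBS peaks of 1736 bp each and lysine peaks of 1781, 777 and 333 bp. At Pim1 lysine covered less, a direction that turned with narrow blocks (477 bp more in lysine) and with equal numbers of peaks (1431 bp more).

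Brd2, a reader of acetylated histones, overlaps in its RefSeq span with H2-DMa, a chaperone of MHC class II loading. The locus had PBS peaks of 695 and 1987 bp and lysine peaks of 649, 757 and 1702 bp, and lysine minus PBS length was -178 bp with narrow blocks and -66 bp with −log10 q of 5 or more. Klf9, a Krüppel-like factor, had 819 and 916 bp in PBS and 2058, 807 and 324 bp in lysine, and the same treatments turned its direction, to -286 and -109 bp. N4bp1, a ribonuclease that restrains cytokine responses, had 530 and 899 bp in PBS and 494, 410, 1081 and 775 bp in lysine. With −log10 q of 5 or more lysine minus PBS length at N4bp1 was -828 bp. At these 3 loci every PBS peak had a lysine peak on it and lysine added peaks.

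Further lysine chains lay at Plau, the urokinase gene, Rab32, a small GTPase of lysosome-related organelles, Usp4, a deubiquitinase, and Stambpl1, a deubiquitinase of the AMSH family. Each had 1 PBS peak and 3 lysine peaks. At Plau lysine peaks of 320, 413 and 407 bp faced a PBS peak of 610 bp, and at Rab32 peaks of 302, 291 and 398 bp faced 277 bp. The lysine chain without a PBS peak lay at the long non-coding RNA A930011G23Rik, with peaks of 289, 329 and 442 bp and −log10 q up to 3.80.

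Chain peaks lay on 1 gene in each list among 49 genes of lysine and amino acid transport and use. Sesn2, a leucine sensor upstream of mTORC1, had PBS peaks of 511, 633 and 400 bp and lysine peaks of 712 and 346 bp. Ddit4, an mTORC1 inhibitor induced by stress, had PBS peaks of 1405 and 413 bp and lysine peaks of 447, 332 and 446 bp. Most of the length of these peaks lay outside both genes. Inside Sesn2, PBS peaks covered 79 bp and lysine peaks 128 bp. Inside Ddit4 they covered 15 and 78 bp. Of the 49 genes, 29 had a peak in each list, beside 34% and 31.4% of all protein-coding genes.

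Chain peaks fell on 93 protein-coding genes in PBS, 0.425% of 21900, and on 53 in lysine, 0.242%. Of 43 haematopoietic transcription factors the numbers were 3 (Runx1, Bcl6 and Nfil3) and 1 (Nfil3), and of 34 immediate early genes 3 and 0. Of 41 lysosome and endocytosis genes they were 3 (Rab31, Vps13d and Snx1) and 0, and of 48 kinase and phosphatase genes 3 (Pik3cd, Pik3ap1 and Itpr2) and 1 (Itpr1). Of 47 adhesion genes they were 2 (Itgax and Nedd9) and 0, of 47 splicing genes 1 (Mbnl1) and 0, and of 17 MHC class I genes 1 (Tapbp) and 0. The Toll-like receptor and NF-kB list gave Irak2 in both lists among 37 genes. Lysine alone had 1 chain gene among 18 MHC class II genes (H2-DMa), 46 cytokines and receptors (Il3ra) and 54 histone modifiers and bromodomain genes (Brd2). H2-DMa and Brd2 were counted for the same chain. Over the whole of H2-DMa peaks covered 2603 bp in PBS and 2345 bp in lysine. No chain peak lay on any of 34 interferon response genes, 21 methionine and S-adenosylmethionine genes or 36 ribosomal protein genes in either list. Yet a PBS peak lay on 32 of the 36 ribosomal protein genes, and a lysine peak on 30. These counts are too small to set 1 list of genes apart from another.

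Several signalling and trafficking genes had a PBS chain and 1 or 2 lysine peaks. Pik3cd, a catalytic subunit of PI3 kinase in leukocytes, had PBS peaks of 1715, 716 and 828 bp and a lysine peak of 1046 bp. Pik3ap1, an adaptor of the same pathway, had 759, 1562 and 455 bp and then 791 bp. Itgax had 326, 299 and 636 bp and then 431 bp. Each retained lysine peak at Itgax and Pik3ap1 lay on 1 of the 3 PBS peaks. Nedd9, an adhesion scaffold, had 733, 464 and 458 bp and then 353 and 302 bp, Rab31 385, 444 and 395 bp and then 400 bp, and Vps13d, a lipid transfer protein, 607, 318 and 446 bp and then 470 bp. The longest PBS chain had 5 peaks of 1605, 820, 501, 441 and 284 bp at the non-coding RNA Gm51701, 21723 bp from the chemokine receptor gene Ccr1, against 3 lysine peaks of 460, 726 and 489 bp.

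Among 5 classes of gene content, peaks of PBS chains wholly inside 1 protein-coding gene were met least often in lysine. Of these 24 chains 4 were chains in lysine and 5 had no lysine peak, and 34 of their 72 peaks (47.2%, 35.3 to 59.3) had a partner, beside 61.9% of all PBS peaks. Peaks inside genes away from a start had similar shares with a partner in and outside chains, 51.4% in chains, 50.3% in runs of 2 and 50.5% standing alone. Of the 22 PBS chains on no protein-coding gene, 7 were chains in lysine and 50 of 72 peaks (69.4%, 57.5 to 79.8) had a partner. Of the 10 lysine chains wholly inside 1 gene, 4 were chains in PBS, and 76.7% (57.7 to 90.1) of their peaks had a partner, beside 75.3%. These 10 include the chains at Nkiras2 and Brd2, which lie within the span of 1 gene while their peaks also overlap others.

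A smaller share of chain peaks than of peaks standing alone lay near a gene start. The smallest gap between peaks was 1105 bp in PBS and 1096 bp in lysine, so the peaks of a chain cannot all lie near the same start, and the rule fixes part of this difference. For these shares the distance to a start was taken from the nearest base of the peak. Starts were known for 17492 of the 21900 protein-coding genes. Peaks at the starts of the other genes were thus counted as farther from a start or outside genes. Of 285 PBS chain peaks on chromosomes with start positions, 21.4% (16.8 to 26.6) lay within 1 kb of a start. A further 38.9% lay elsewhere in a protein-coding gene and 39.6% outside protein-coding genes, where non-coding genes may lie. The shares for PBS peaks standing alone were 43.0%, 31.9% and 25.2%. In lysine they were 27.3% (20.6 to 34.9), 32.3% and 40.4% for 161 chain peaks and 48.4%, 28.4% and 23.2% for peaks standing alone. Within 1 kb of a start, a lysine partner was found for 47 of 61 PBS chain peaks and 3300 of 4178 PBS peaks standing alone, which are similar shares. The shares were 51.4% and 50.5% inside protein-coding genes away from a start, and 64.6% and 48.7% outside protein-coding genes. Of peaks with a midpoint within 5 kb of a start, 46 of 107 PBS chain peaks (43.0%) and 40 of 80 lysine chain peaks (50%) lay downstream of it, against 42.5% and 41.1% in runs of 2 and 36.1% and 34.8% of peaks standing alone.

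**Figure D5:**
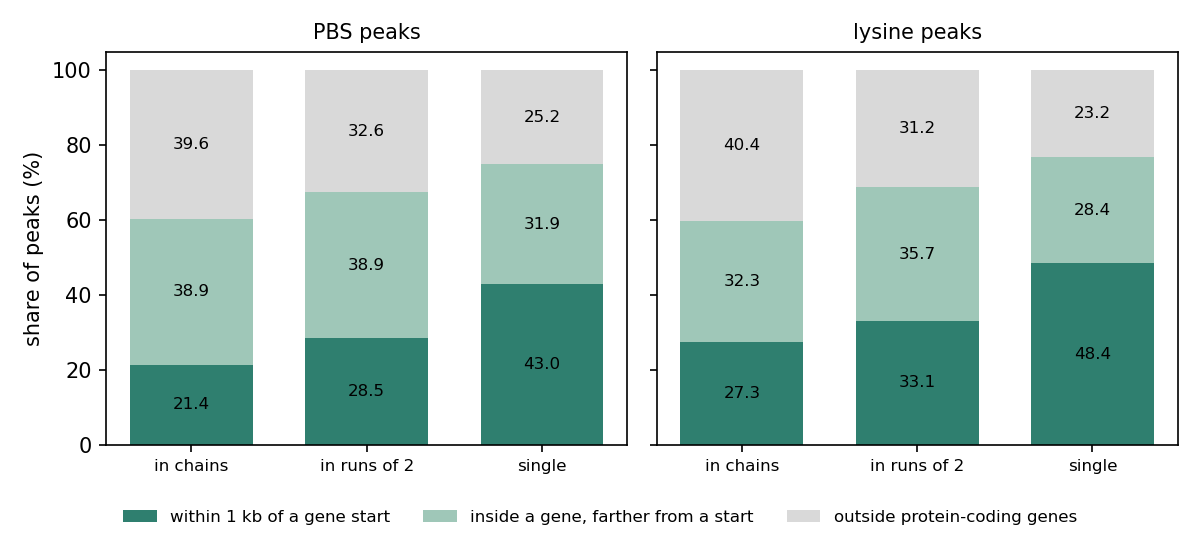
Share of peaks (vertical axis, percent, from 0) within 1 kb of a gene start, inside a gene farther from a start, and outside protein-coding genes, for peaks in chains, in runs of 2 and standing alone, PBS on the left and lysine on the right. The share within 1 kb of a start is 21.4% for PBS chain peaks and 43.0% for PBS peaks standing alone, and 27.3% and 48.4% in lysine.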

How the data were processed

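H3K79me2 ChIP-seq and input libraries of formaldehyde-fixed cells gave paired reads, per the labels' protocols, and 1 H3K79me2 library per condition was analysed. Tools listed without roles in the submitters' processing notes, beside the build GRCm38, are MACS2 2.1.2, Bowtie2 2.3.4.1, Picard, Trimmomatic 0.38, cutadapt 1.18, ChIPseeker and FastQC. How peaks were thresholded, and whether inputs served as control, is not given in the sources used here. Peaks were deposited per sample. The authors' lists give each peak a score, a linear fold enrichment (ratio) and −log10 p and q values, which depend on depth. They served for ranks and descriptions within a list and for minimums applied alike to both lists, whose effect may differ with depth. The deposited gapped lists add narrow blocks.

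Peaks were chained, joined to loci and matched to the other list (1 bp or more) in Python 3.11.15 with numpy 2.4.6, pandas 2.3.3, scipy 1.17.1 and matplotlib 3.10.9. Matches were checked against bedtools 2.31.1 with 0 differences, and 156 of 156 chains planted in a simulated list were found. Covered length at a locus was counted only between its ends. The GRCm38.p6 gene table, from RefSeq, holds no exons, so exons and introns were not separated. Starts and promoters came from a second RefSeq table, which matched 17492 of the 21900 protein-coding genes. All 747 genes of 25 lists matched.

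The members and lists were chosen with earlier results of these data known. Named by rule were the chains with most peaks, longest span or highest covered share, those with no partner and most covered length, the loci with the largest differences in peak number, the shared loci with most covered length, Dot1l, and 2 genes per list. Some loci that the rule named are not described above. They are Amz2, Pebp4, Irf2bpl, Gm40741 and loci in no gene on chromosomes 8 and 17. Trim8 and Gm32287 are only listed further below. Loci named outside the rule are said to be so or belong to a complete count. Alternatives were other gaps, sizes, overlaps and −log10 q minimums, narrow blocks and equal numbers of peaks.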

Additional observations from a re-analysis of the deposited data

How the results depend on the processing

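Of 110 recomputed summary values 61 stayed within their interval or within 1.5 times of the value reported. For median spans and covered shares this was an interval of the median, narrower than the quartiles. It ran from 7008 to 8360 bp for the span of PBS chains. Both the 110 and the 61 include 13 values of the added alternative without the start of chromosome 9. Leaving out so few chains could hardly move those values. Equal numbers of peaks gave 54 PBS chains, a lysine to PBS ratio of 0.963, and partner shares of 67.8% in chains and 68.7% outside them in PBS, and 67.7% and 68.7% in lysine. Chains of 4 or more peaks numbered 13 and 3 (ratio 0.231), with median spans of 10911 and 12275 bp, 68.5% of PBS chain peaks partnered, and 15.4% of the PBS and 66.7% of the lysine chains persisting. A gap of 10 kb gave 303 and 164 chains, median spans of 13094 and 12422 bp and covered shares of 13.8% and 13.5%. A gap of 2 kb gave 13 and 6 chains, 5053 and 5174 bp, 34.7% and 36.1%, and 15.4% of PBS chains persisting. Narrow blocks gave 137 and 80 chains, 6398 and 6290.5 bp, and partner shares outside chains of 60.5% and 73.5%. Requiring an overlap of 50% of the shorter peak gave 74.2% outside lysine chains. A −log10 q of 2 or more left 33 lysine chains and a partner share of 76.6% outside them. A −log10 q of 5 or more left 4 chains in each list (ratio 1), with spans of 5057 and 6059 bp, covered shares of 42.4% and 32.6%, persistence of 0% and 0%, and partner shares of 25% in and 56.1% outside PBS chains and 61.5% and 73.2% in lysine.

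Of all 121 loci 44, and of the 49 loci named by rule 17, turned direction of covered length under at least 1 of 4 treatments. Beyond those given in the report, the latter were Sdccag8 (380 bp more in lysine with equal numbers), Gm51701 (48 bp more at −log10 q of 5 or more), Irf2bpl (591 bp more there), a locus in no gene on chromosome 17 (-380 bp there), and Gm36486 (254 bp more at −log10 q of 2 or more and with equal numbers, 281 bp more at 5 or more). Outside the rule, Gabarap (165 bp), H3f3b (11 bp), Itpr2 (462 bp) and Sertad1 (-820 bp) turned at −log10 q of 5 or more, H2-Ke6 (379 bp) with equal numbers, and Pip5k1c (-172 bp), Glipr1 (-456 bp), Myo1c (-163 bp), Rcbtb2 (-674 bp) and Gm40645 (-632 bp) with narrow blocks. Glipr1 (-545 bp), Myo1c (-458 bp) and Rcbtb2 (-446 bp) also turned at −log10 q of 5 or more, and Glipr1 (-829 bp) at 2 or more. The values given in the report were lysine minus PBS of 225 bp at Mcl1, 340 at Fosl2, -408 at Irak2, -828 at N4bp1, -1977 at Per1, 1 at Bcl6, -66 at Brd2 and -109 at Klf9 at −log10 q of 5 or more, -267 at Dot1l, -258 at Klf6, 155 at Nfil3, 477 at Pim1, -178 at Brd2 and -286 at Klf9 with narrow blocks, and 1431 at Pim1 with equal numbers. The cause was not tested. Without the start of chromosome 9, an alternative added after the data were seen, all 13 summary values stayed within those bounds. No paired analysis was possible because each condition has 1 library and the result comes from no test. Unknown depth limits every difference in peak number.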

Other observations

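Promoter windows under chain peaks and under peaks in general had similar numbers of CpG. The median number of CpG in the 300 bases was 13 over all 21263 starts, 24 under any PBS peak and 23 under a PBS chain peak (57 starts), and 24 and 22.5 in lysine (40 starts). CCAAT was in 43.9% (30.7 to 57.6) of windows under PBS chain peaks and 48.9% under any PBS peak, and in 22.5% (10.8 to 38.5) of 40 and in 2368 of 4737 in lysine. TATAAA was in 8 of 57 windows under PBS chain peaks (6.26% to 25.8%) and in 5.68% under any PBS peak, and in 2.5% and 5.28% in lysine. Of these 8 windows 4 belong to the histone genes of the H1f5 locus and 2 to overlapping windows of Ing1. The windows of the histone genes H2ac22 and H2bc22 also overlap and share the same TATAAA match. GGGCGG was in 68.4% and 71.3% in PBS and in 72.5% and 72.5% in lysine. Neighbouring starts of the same gene, and of some neighbouring genes, share bases, so these windows are not independent. The CCAAT share under lysine chain peaks rests on 9 of 40 windows.

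Chromosome 4 held 12 of the 91 PBS chains and 3 of the 52 lysine chains, and chromosome 11 held 8 and 6. Chromosomes X and Y held 0 in either list. Of the 121 loci, 27 overlapped no protein-coding gene, and 7 of these had a chain in both lists. B230303A05Rik, a long non-coding RNA, was among them, with peaks of 562, 429 and 409 bp in PBS and of 510, 611 and 466 bp in lysine. The chains in which every peak had a −log10 q of 5 or more were those at Per1, Trib1 and Trim8 in PBS, and at the non-coding RNAs Gm32287 and B230303A05Rik and the gene pair Unk and H3f3b in lysine.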
